A study of Mus musculus with 6 samples.

Results

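miR-192 and miR-194 are microRNAs (miRNAs), short RNAs that guide silencing proteins to messenger RNAs through bases 2 to 8 of the mature strand, the seed. The rows described here are miR-192-5p, miR-192-3p and miR-194-5p, chosen by name as the clustered pair linked to p53. They are 3 of the 1966 rows of the deposited table. The choice was made with the counts of these rows and their differences between the groups already known, so those values are given as a description and no p-value is attached to them. Of the 3 rows, 2 had reads and passed the filter on low counts, and miR-192-3p had no count in any library.

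The hearts came from male mice of wild-type (WT) genotype, 8 weeks after surgery, and their small RNA was sequenced. In 3 mice (animals 29, 78 and 81) transverse aortic constriction (TAC), a lasting narrowing of the aorta that loads the left ventricle with pressure, had been performed. The other 3 mice (animals 47, 68 and 69) had sham surgery. Each mouse gave 1 library. The sources used here give neither strain nor age. The comparison asks how cardiac miRNAs differ under chronic pressure overload. In whole tissue, fewer cells of a type and less RNA per cell cannot be told apart.

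The genes of miR-192 and miR-194 lie next to each other and are copied into one primary transcript. A duplicated pair holds a second gene of miR-194 beside miR-215. In human tumour cells the tumour suppressor p53 activates these genes, and their miRNAs slow the cell cycle. Both miRNAs are abundant in epithelium of liver, kidney and gut. In kidney, miR-192 is known as a target of TGF-beta signalling that represses Zeb2, and in human blood miR-192 and miR-194 have been studied beside miR-34a as p53-responsive markers of heart failure after infarction.

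The mature sequences are shown because they set which rows can share targets and which can share reads. They are RefSeq sequences on GRCm38.p6 (the mm10 assembly), written 5′ to 3′ with the seed in capitals.
miR-192-5p: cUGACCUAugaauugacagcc
miR-215-5p: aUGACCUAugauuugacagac
miR-194-5p: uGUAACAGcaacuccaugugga
miR-192-3p: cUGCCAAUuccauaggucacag
miR-194-2-3p: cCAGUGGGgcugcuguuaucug
miR-194-1-3p: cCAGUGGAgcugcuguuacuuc
Among 1679 mature names in the RefSeq table, miR-215-5p was the only other one with the seed of miR-192-5p. No other name had the seed of miR-194-5p or of miR-192-3p. miR-192-5p and miR-215-5p are identical at 18 of 21 positions. Counted from 1 at the 5′ end of miR-192-5p, the differences are C1A, A12U and C20A. The 3p arms of the paralogous miR-194 hairpins are identical at 18 of 22 positions, with A8G, C19U, U20C and C22G from miR-194-1-3p to miR-194-2-3p. These differences let the arms name their hairpin, whereas miR-194-5p has the same sequence in both hairpins.

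The hairpins of chromosome 19 are printed to show where the annotated arms of each lie, whether or not they had counts. The mature arms are in capitals, with the 5p arm first.
Mir192: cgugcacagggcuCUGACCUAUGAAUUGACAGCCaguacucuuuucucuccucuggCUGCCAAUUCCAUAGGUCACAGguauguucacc
Mir194-2: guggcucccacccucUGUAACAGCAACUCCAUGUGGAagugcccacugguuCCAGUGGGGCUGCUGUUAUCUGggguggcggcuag
Mir194-2 (86 nt) precedes Mir192 (89 nt) on the plus strand of chromosome 19, with 115 nt between them. miR-192-5p lies at chr19:6264857-6264877 and miR-192-3p at chr19:6264900-6264921. Neither lies in an annotated host gene of GENCODE release M21, and the nearest protein-coding genes are Atg2a and Ehd1. miR-194-5p lies at chr19:6264658-6264679 and again at chr1:185313325-185313346. On chromosome 1, Mir194-1 (67 nt) and Mir215 (112 nt) are 195 nt apart on the plus strand. Both lie within the noncoding gene 2010103J01Rik, Mir194-1 in an intron and the arms of Mir215 in an exon, and opposite an intron of Iars2, a mitochondrial isoleucyl-tRNA synthetase gene.

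**Figure D1:**
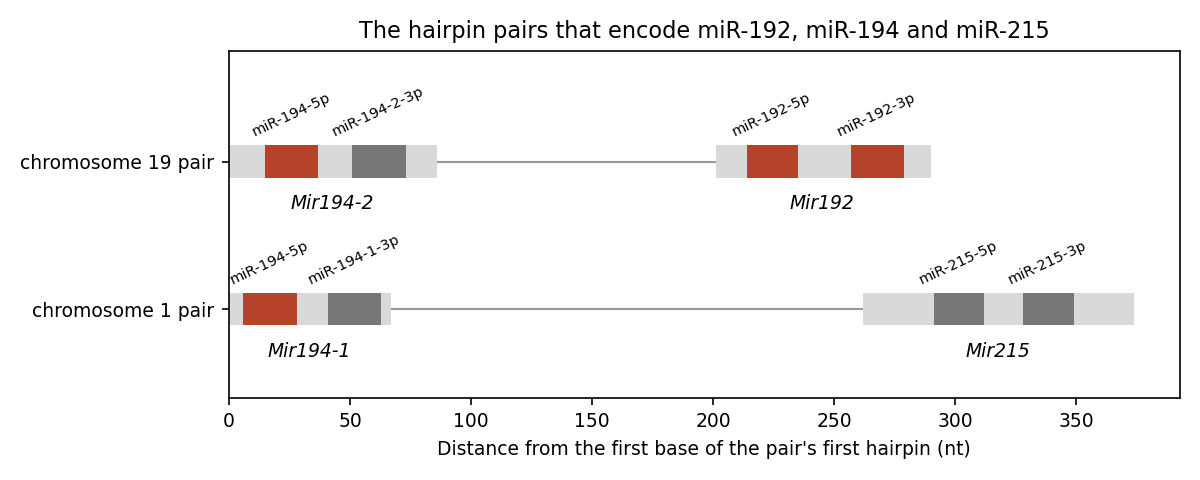
Map of the hairpin pairs of chromosome 19 (upper) and chromosome 1 (lower), drawn to scale as distance in nt from the first base of each pair's first hairpin. Grey boxes are hairpins, red boxes the arms of miR-192-5p, miR-192-3p and miR-194-5p, dark boxes the other arms; 115 nt separate the hairpins of the upper pair and 195 nt those of the lower pair.

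Total counts ranged from 1226187 to 3509001 per library, and the floor of 3 counts behind a 0 corresponded to 0.767 to 2.82 CPM (counts scaled to a common library size, with TMM factors). Intervals and floors of this kind cover counting error only. The heart label was checked with miR-1a-3p, the main miRNA of heart muscle, which had the highest mean of the 354 tested miRNAs, at 226519 ± 23659 CPM in TAC and 125091 ± 14846 CPM in sham hearts (SD, n = 3 each). The row of miR-1a-3p overlaps an opposite-strand row, so its level may miss reads. The first principal component, with 56.8% of the variance, placed all TAC libraries on one side and all sham libraries on the other. That split does not show which side is TAC. The labels of TAC and sham were taken as given and were not checked with a marker of pressure overload.

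miR-192-5p, the main product of its hairpin, was at 680, 689 and 732 CPM in TAC animals 29, 78 and 81, against 354, 408 and 374 CPM in sham animals 47, 68 and 69. Every TAC heart was above every sham heart, and the gap between the groups was wider than the range within either. The means were 700.2 ± 27.8 CPM in TAC and 378.7 ± 26.9 CPM in sham (SD, n = 3 each), a log2 fold change of 0.89 ± 0.11 (SE), or 1.85-fold. The raw counts behind these levels were 1124, 1026 and 779 in TAC and 1386, 812 and 956 in sham, with a counting error of 2.69% to 3.58% each. The raw counts overlapped between the groups, since the TAC libraries held fewer counts in all than sham 47, sham 68 and sham 69. With library totals in place of TMM factors the log2 fold change was 0.58, and the median of all tested miRNAs was then -0.23, against 0.07 with TMM. Relative to that median the difference was 0.81 with library totals and 0.82 with TMM. A change of scaling moves all rows by nearly the same amount, so the likeness of these values is no test. By mean level miR-192-5p ranked 80 among the 354 tested miRNAs.

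miR-194-5p was at 331, 290 and 250 CPM in TAC animals 29, 78 and 81 and at 161, 233 and 213 CPM in sham animals 47, 68 and 69. The groups did not overlap, but TAC 81 and sham 68 were close to each other. The means were 290.3 ± 40.4 CPM in TAC and 202.5 ± 37.5 CPM in sham (SD, n = 3 each), a log2 fold change of 0.52 ± 0.17 (SE), or 1.44-fold. The counts were 547, 432 and 266 in TAC and 629, 465 and 545 in sham. This row sums reads over its 2 places. In each of the 6 libraries miR-199a-3p, with 2 places as well, had 2.0001 to 2.0004 times as many counts as miR-199b-3p, whose sequence is identical, so reads of that sequence were counted at each place. miR-194-5p had an odd count in 4 of the 6 libraries, so its own count was not an exact doubling there. Dividing counts by places left its log2 fold change at 0.48. With library totals it was 0.22. Relative to the median of all tested miRNAs it was 0.45 with TMM, 0.45 with library totals and 0.28 without sham 47. The likeness of the values with TMM and library totals is again no test.

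miR-192-3p, the opposite strand of the miR-192 hairpin, had 0 counts in each of the 3 TAC and 3 sham libraries. The 6 libraries held 6083 counts of miR-192-5p, and 3 counts were taken as the limit for miR-192-3p over the same libraries. In counts, the 5p arm was then about 2028-fold higher or more. That bound holds only if reads of miR-192-3p were counted like those of other rows, which could not be settled from the table. No fold change between the groups can be given for it. The table held 107 pairs of rows named as the 5p and 3p arms of a hairpin in which the higher arm had at least 1000 counts over all libraries. In 6 of these pairs the lower arm was at 0 in every library, and 2 of those arms overlapped a row on the opposite strand, which keeps their zeros from being read as absence. miR-192-3p had no such overlap, and neither had miR-101b-5p, miR-206-5p and miR-1964-5p, which are named after their values were seen. Why these rows are at 0 was not tested.

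**Figure D2:**
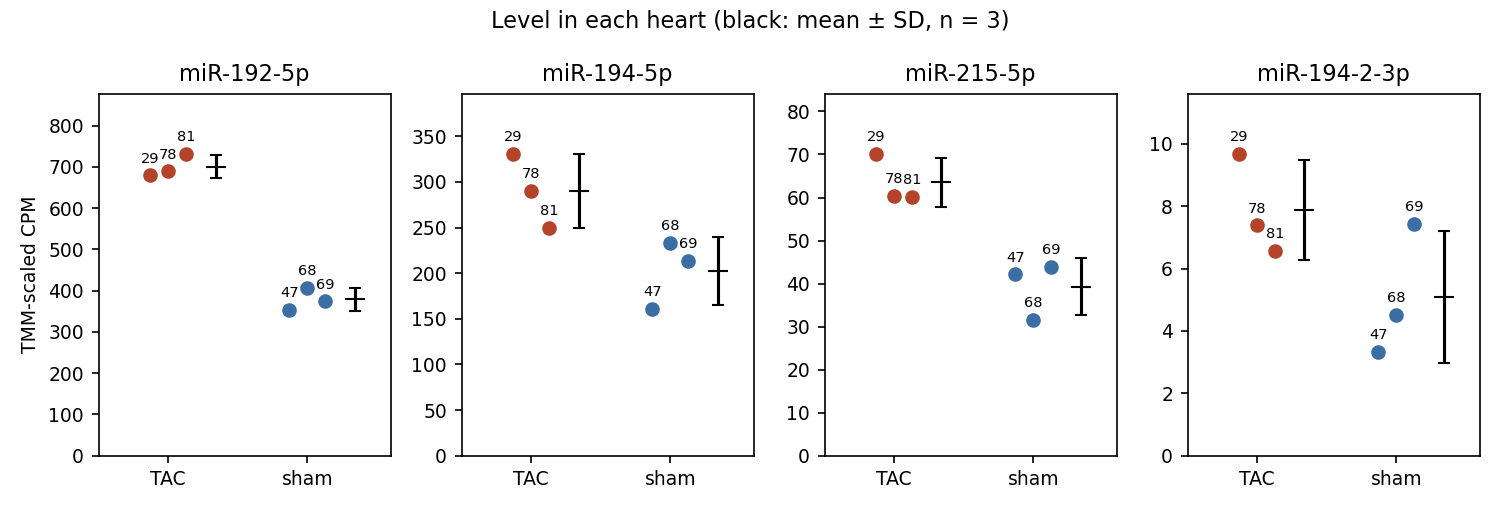
TMM-scaled CPM (linear axes from 0) of miR-192-5p, miR-194-5p, miR-215-5p and miR-194-2-3p in each heart, TAC (red) left of sham (blue), with animal numbers and the mean ± SD (n = 3) in black. The TAC points lie above all sham points for miR-192-5p, miR-194-5p and miR-215-5p, while sham 69 lies among the TAC points for miR-194-2-3p.

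In the fit over the whole table (edgeR quasi-likelihood test), 30.5% of the 354 tested miRNAs were called at an adjusted p under 0.05, 19.2% higher in TAC and 11.3% lower. Of the 2 tested members, miR-192-5p was among the higher calls and miR-194-5p did not pass, by a narrow margin. Both had groups that did not overlap, as had 51.4% of tested miRNAs, and TAC was the higher group in both, as in 29.4% of tested miRNAs. These counts restate the values known when the rows were chosen. In 16 alternative analyses the log2 fold change lay between 0.58 and 0.96 for miR-192-5p and between 0.22 and 0.65 for miR-194-5p, given as values and not as a test. miR-192-5p was called in 16 of them and miR-194-5p in 4, also as a description. A call for 1 member and not for the other is no test of a difference between them.

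**Figure D3:**
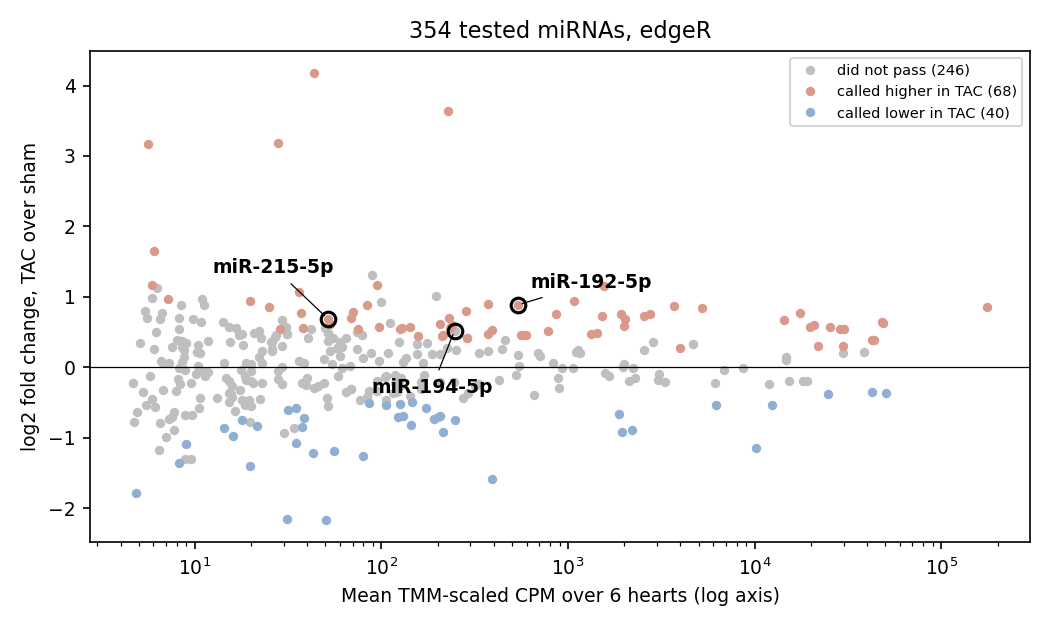
Mean TMM-scaled CPM over the 6 hearts (log axis) and log2 fold change of TAC over sham for each of 354 tested miRNAs, coloured by edgeR call. miR-192-5p at 0.89, miR-215-5p at 0.69 and miR-194-5p at 0.52 are ringed and lie above 0.

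The ratio of miR-192-5p to miR-194-5p within a library does not depend on the scaling between libraries. With counts divided by places it was 4.11, 4.75 and 5.86 in TAC animals 29, 78 and 81, against 4.41, 3.49 and 3.51 in sham animals 47, 68 and 69. miR-192-5p was the more abundant in every heart. The groups overlapped, since sham 47 lay above TAC 29. As log2 of the ratio of undivided counts the means were 1.28 ± 0.26 in TAC and 0.92 ± 0.19 in sham (SD, n = 3 each). Their difference of 0.36 was 0.23 without TAC 81.

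The 3p arms of the miR-194 hairpins differ in sequence, so their reads can be assigned to a hairpin. miR-194-2-3p, from the chromosome 19 hairpin beside Mir192, had 16, 11 and 7 counts in TAC animals 29, 78 and 81 and 13, 9 and 19 counts in sham animals 47, 68 and 69. miR-194-1-3p, from the chromosome 1 hairpin beside Mir215, had 2, 1 and 0 counts in the same TAC animals and 6, 1 and 4 counts in the same sham animals. In all, 75 counts named the chromosome 19 hairpin and 14 the chromosome 1 hairpin. These counts do not settle which gene gave the reads of miR-194-5p. Single counts of this size carry a counting error of 22.9% or more. miR-194-2-3p averaged 7.88 ± 1.61 CPM in TAC and 5.09 ± 2.12 CPM in sham (SD, n = 3 each), and its log2 fold change of 0.68 ± 0.41 did not pass (edgeR adjusted p = 0.224). miR-194-1-3p, and miR-215-3p with 1 count in TAC and 3 in sham, were too low to be tested.

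miR-215-5p, which has the same seed as miR-192-5p, was higher in TAC. It was at 70.1, 60.5 and 60.1 CPM in TAC animals 29, 78 and 81, against 42.2, 31.6 and 43.9 CPM in sham animals 47, 68 and 69. The groups did not overlap. Its log2 fold change was 0.69 ± 0.18, or 1.62-fold (edgeR adjusted p = 0.0209, higher in 3 of 3 TAC hearts than in any sham heart). The call was lost in 7 of 16 alternatives, where its log2 values ran from 0.39 to 0.61. The lowest were 0.39 with library totals (adjusted p = 0.145) and 0.41 after removal of each library's GC trend (adjusted p = 0.148), and those without 1 mouse were 0.58 without sham 68 and 0.61 without TAC 29. In counts, miR-192-5p stood at 9.69 to 12.2 times miR-215-5p in TAC and at 8.40 to 12.9 times in sham. The groups overlapped, with sham 68 the highest of the 6 hearts.

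Over the 6 libraries, the miRNAs whose log2 CPM followed miR-192-5p most closely were miR-30a-3p (Pearson r = 0.989), miR-145a-3p (r = 0.988) and miR-1a-3p (r = 0.988). miR-215-5p (r = 0.844) and miR-194-5p (r = 0.822) ranked 77 and 82 among the 353 other tested miRNAs, and miR-194-2-3p (r = 0.669) ranked 114. For miR-194-5p the closest were miR-335-5p (r = 0.970), miR-3068-3p (r = 0.963) and miR-30a-5p (r = 0.910). There miR-194-2-3p ranked 12 (r = 0.851) and miR-215-5p ranked 79 (r = 0.668). These correlations are a description over 6 points in 2 groups. They share the difference between TAC and sham and the scaling of each library.

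Among the other miRNAs linked to p53, either as targets of its transcription or through p53-aided processing, 5 rose, 1 fell and 7 did not pass, of 13 tested and 24 in the table. Of all tested miRNAs 19.2% were called higher and 11.3% lower. The 13 tested rows without miR-192-5p and miR-194-5p had a median log2 fold change of 0.47, against 0.07 for all tested miRNAs. They include the hairpin partners miR-215-5p (0.69) and miR-194-2-3p (0.68), so they are not independent of the members. Nor are they independent of each other, since they hold the arms of miR-143 and miR-145a, another clustered pair. The higher calls miR-143-3p, miR-143-5p and miR-145a-3p all come from that pair. With miR-192-5p and miR-194-5p the list had 6 higher, 1 lower and 8 not passing of 15 tested. The median of 0.52 with these members includes rows chosen with their values known, and the medians are no test. The list was drawn up with earlier results of these data known. miR-34c-5p, of the miR-34 family that p53 induces most directly, fell: it was at 67.1, 36.9 and 36.6 CPM in TAC animals 29, 78 and 81, against 115.8, 122.5 and 101.8 CPM in sham animals 47, 68 and 69 (log2 fold change -1.26 ± 0.25, edgeR adjusted p = 0.0064). miR-34a-5p, of the same family, is named here with its values already known. It stood at 24.2, 24.2 and 31.0 CPM in TAC and 26.8, 25.1 and 36.0 CPM in sham, with overlapping groups and a log2 fold change of -0.16 ± 0.21 that did not pass.

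The other rises were those of miR-215-5p, of the smooth muscle miRNAs miR-145a-3p (0.89 ± 0.13), miR-143-3p (0.64 ± 0.11) and miR-143-5p (0.47 ± 0.12), and of miR-16-5p (0.52 ± 0.12), which restrains the cell cycle. Their edgeR adjusted p-values lay between 0.00176 and 0.0211. miR-143-3p was at 57378, 60514 and 58911 CPM in TAC animals 29, 78 and 81 and at 41593, 38841 and 33024 CPM in sham animals 47, 68 and 69. miR-143-5p lost its call in 8 of 15 alternatives, without sham 68, sham 69, TAC 78 or TAC 81 among them, and miR-16-5p in 4 of 16, without TAC 29 or TAC 81 among them. With library totals their log2 fold changes were 0.16 and 0.21. The most abundant rows that did not pass were miR-145a-5p, at 1179 ± 88.2 CPM in TAC and 1017 ± 87.6 CPM in sham, and miR-107-3p, at 1058 ± 163 CPM in TAC and 1067 ± 134 CPM in sham (SD, n = 3 each). With library totals 3 members of the list were higher and 1 lower.

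**Figure D4:**
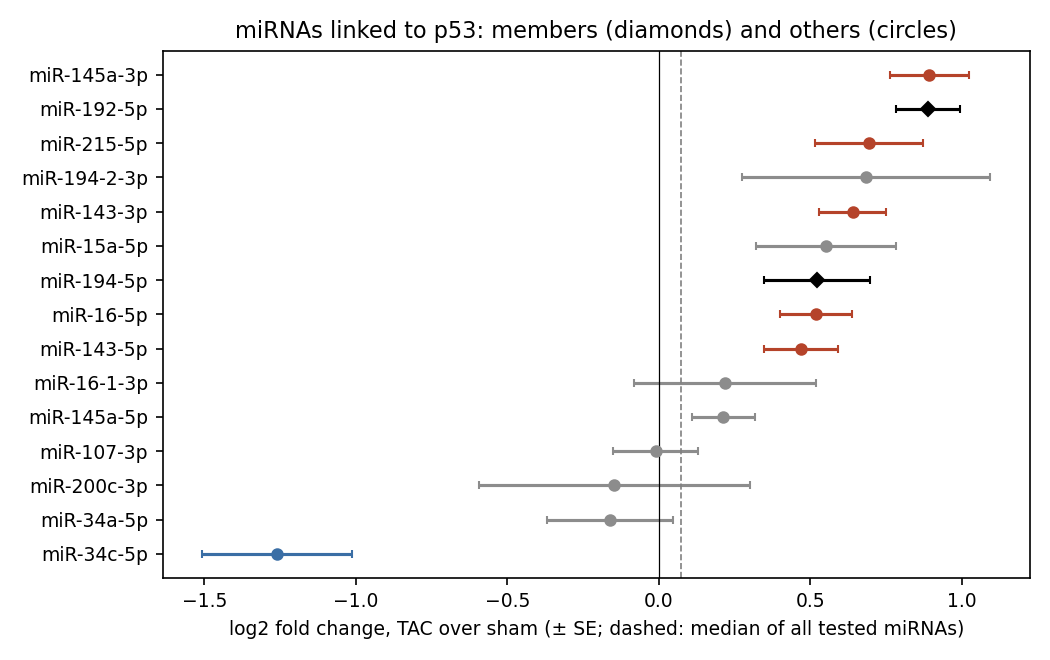
log2 fold change of TAC over sham with its SE for the 15 tested miRNAs linked to p53, with miR-192-5p and miR-194-5p as black diamonds, other higher calls in red, the lower call in blue and rows that did not pass in grey. miR-34c-5p at -1.26 stands apart from miR-192-5p at 0.89, and the dashed line is the median of all tested miRNAs, 0.07.

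Because both miRNAs are typical of liver, kidney and gut epithelium, other miRNAs of epithelial organs were read beside them. Of 25 such rows, 11 were at 0 in every library and 4 could be tested, and 0 of these were called by edgeR (0 with DESeq2 and limma-voom, and 0 at an unadjusted p under 0.05). Their median log2 fold change was -0.72, and sham 68 decided its sign: without it the median was 0.12, with 2 rows above 0 and 2 below. It was -1.16 without sham 47 and -0.14 with limma-voom. The summed level of the list was 31.0 to 72.0 CPM in TAC and 25.1 to 131.5 CPM in sham, so the groups overlapped. miR-200c-3p was at 13.5 ± 1.09 CPM in TAC and 15.8 ± 9.58 CPM in sham, and miR-182-5p at 12.6 ± 8.43 CPM in TAC and 9.08 ± 5.96 CPM in sham (SD, n = 3 each). miR-802-5p, miR-802-3p and miR-216a-5p, of liver and pancreas, were at 0. The zeros of miR-122-5p, miR-122-3p, miR-203-3p, miR-203-5p and miR-216b-5p do not measure absence, because those rows overlap an opposite-strand row. Without a low-count filter 2 of these rows were called lower, and 1 was without sham 47. miR-200c-3p is also on the list linked to p53.

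Other cell type lists are given by their summed levels and calls, to be read beside the 19.2% of all tested miRNAs called higher and the 11.3% called lower. The summed red blood cell miRNAs were at 1641 to 3062 CPM in TAC and 999 to 1164 CPM in sham, with 1 of 3 tested rows higher. Leukocyte miRNAs summed to 1540 to 1654 CPM in TAC and 1129 to 1526 CPM in sham, with 2 of 7 tested rows higher. With so few tested rows these shares lie near that of all tested miRNAs, and nothing is read from them. Heart muscle miRNAs summed to 296645 to 355982 CPM in TAC and 167153 to 200222 CPM in sham, with 7 of 8 tested rows higher. Smooth muscle miRNAs summed to 59519 to 62551 CPM in TAC and 34626 to 43244 CPM in sham, with 3 of 4 tested rows higher. All 4 are also on the list linked to p53. Fibroblast miRNAs summed to 16650 to 17229 CPM in TAC and 19100 to 30877 CPM in sham, with 5 of 6 tested rows lower. Among these lower rows, miR-199a-3p and miR-199b-3p have the same sequence and share reads, each with a log2 fold change of -0.53. They are not separate measurements, and the sum counts their reads more than once. miR-1a-2-5p, miR-486a-5p, miR-486a-3p, miR-142a-3p, miR-126a-3p and miR-126a-5p were at 0 and overlap an opposite-strand row. miR-1a-3p, which makes up most of the heart muscle sum, overlaps such a row as well, so that sum has the same counting limit. The part of these lists in the levels of miR-192-5p and miR-194-5p was not tested.

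**Figure D5:**
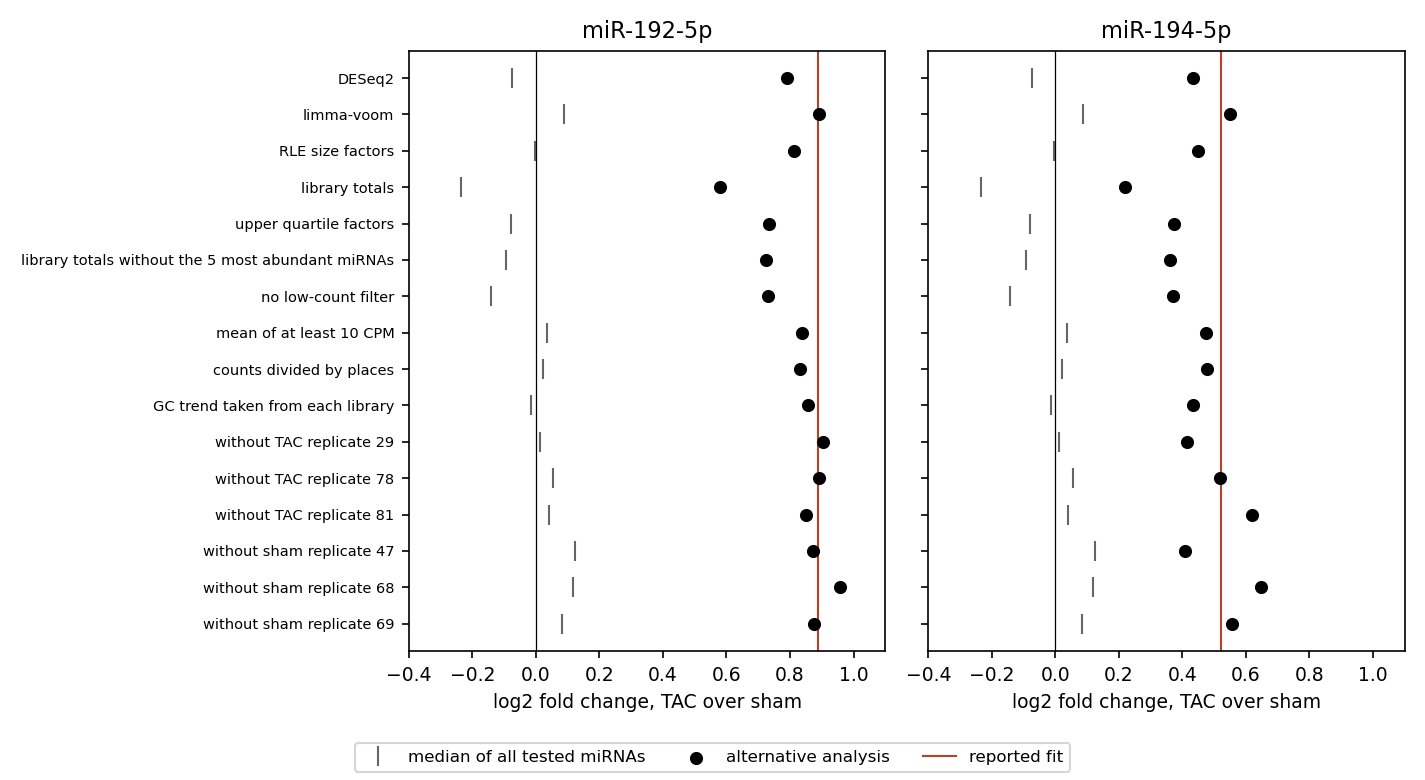
log2 fold change of TAC over sham of miR-192-5p (left) and miR-194-5p (right) under 16 alternative analyses, with a circle for each analysis, a tick at the median of all tested miRNAs and a red line at the reported value. miR-192-5p lies between 0.58 and 0.96 and miR-194-5p between 0.22 and 0.65, with the lowest values of both under library totals.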

How the data were processed

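The authors deposited whole-number read counts per mature miRNA, 1 column per mouse; the submitters' processing notes name HISAT2, StringTie, DESeq2 and mm10 without roles. The sources used here give no counter, trimming or strand setting. All 6 columns were matched to a mouse by animal number, and 0 were left over. By their animal numbers the replicates were different mice. No library was a copy of another in its group (chi-square divided by degrees of freedom, 31.6 to 67.8). edgeR 4.0.16 in R 4.3.3 (TMM, filterByExpr, quasi-likelihood F-test, Benjamini-Hochberg adjustment over 354 rows) was run on the counts, with DESeq2 1.42.0 and limma-voom (limma 3.58.1) as alternatives. The SE of a log2 fold change is its size divided by the root of F. Scripts were tested on simulated data. Correlations used log2 CPM with a prior count of 2. Places come from the deposited table and match RefSeq.

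Members, lists and tests were chosen with earlier results of these data known. Besides the members, the named rows are the arms of their and the paralogous hairpins, rows sharing a seed, called rows of the lists linked to p53 and to epithelial organs with the 2 most abundant uncalled rows of each, the 3 rows closest to each member, and miR-1a-3p.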

Additional observations from a re-analysis of the deposited data

How the results depend on the processing

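The 108 calls of the whole table (68 higher and 40 lower, 63.0% higher) became 71 with the GC trend (315 rows with a sequence tested), and lay between 64 and 83 when 1 mouse was left out, with 64 without TAC 81 and 69 without TAC 78. The split was 58 higher and 62 lower with DESeq2, 25 and 102 with library totals, 43 and 72 with totals that omitted the 5 most abundant miRNAs, 50 and 56 with RLE, 51 and 52 with counts divided by places, 42 and 65 with no low-count filter, and 41 and 63 with the upper quartile. As values, with no test, the log2 fold change of miR-192-5p was 0.58 to 0.96 over the 16 alternatives and that of miR-194-5p 0.22 to 0.65. That of miR-194-5p was 0.43 with DESeq2, 0.55 with limma-voom and 0.41 to 0.65 when 1 mouse was left out.

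The list linked to p53 had 3 higher calls with library totals, 3 without a low-count filter, and 2 higher and 0 lower with the GC trend, where 10 of its 15 rows could be tested. The called rows miR-143-3p, miR-143-5p, miR-145a-3p and miR-34c-5p had no sequence and were not tested there. Among the called rows that were tested there, only miR-215-5p lost its call. The 1 higher call among the hairpin partners (miR-215-5p) became 0 with library totals, the upper quartile, totals that omitted the 5 most abundant miRNAs, no filter and the GC trend, and 0 to 1 when a mouse was left out (0 without sham 68 or TAC 29). The 0 lower calls of the epithelial list became 2 without a filter (miR-200a-3p and miR-200b-3p, named after their values were seen) and 0 to 1 when a mouse was left out (1 without sham 47). The cause of these shifts was not tested, other than the smaller number of rows under the GC trend. The difference in the log2 ratio of miR-192-5p to miR-194-5p moved by less than the spread between replicates, between 0.23 and 0.48. The ratio of miR-192-5p to miR-192-3p was not run, since miR-192-3p was at 0. No paired analysis was possible because the animal numbers are not shared between the groups. Depth limits the 3p arms of miR-194 and miR-215, at 19 counts or fewer per library.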
